A study of Mus musculus with 2 samples.

Results

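Dense clusters of accessible regions away from promoters were described in mouse megakaryocyte-erythroid progenitors. The regions were chosen by their positions in the conservative peak list that the authors made from both libraries, and the clusters were ranked on the fold value of each peak. Overlapping or touching peaks on chromosomes 1 to 19, X and Y were merged into 46200 regions. The 32778 regions farther than 1 kb from any protein-coding transcription start site (TSS) were called distal. Distal neighbours separated by at most 12.5 kb were joined, and every run of at least 5 regions was kept and is called a chain. There were 568 chains, which held 3433 regions, 10.5% of the distal regions (Wilson 95% interval 10.1 to 10.8). The remaining 29345 distal regions lay outside chains and serve as the comparison. Position and fold therefore define the chains and their order and are given as descriptions.

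ATAC-seq, in which a transposase cuts accessible DNA and leaves sequencing adapters there, was performed on megakaryocyte-erythroid progenitors (MEP) from male C57BL/6J mice aged 5 to 6 weeks. The 2 libraries, biological replicates 1 and 2 of 1 group, were made from 50000 cells each. The biosample entries differ and the donor entry is shared, which leaves unstated if 1 or several animals were used, and replicate 1 alone names sequencers. Differences between the libraries measure only the spread between these samples, which may be technical. As a check of the cell label, the promoters of Gata1, Klf1, Epor, Kit and Gfi1b each carried a region of the conservative list, whereas those of Gata2 and Itga2b did not. Of markers of other cell types, Flt3 and Cd34, found on other progenitors, had a promoter region, and Mpo, Cd3e and Alb had none listed. Read depth is unknown, because the files used hold called peaks and no read counts.

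Active regulatory elements of a gene often lie in groups along the chromosome. Such groups are commonly found by stitching neighbouring elements that lie within a fixed distance, as was done to define super-enhancers, and in blood cells they occur near genes of lineage regulators and lineage products. MEP give rise to red cells and platelets. In this lineage the transcription factors GATA1 and TAL1 bind together at many distal elements, where GATA1 reads a short GATA sequence and TAL1 an E-box. CTCF binds a longer sequence and marks many boundaries of chromatin domains. The fold of a peak is its deposited enrichment over background, and the summed fold of a chain adds the strongest peak of each region.

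Sequences around the summits of 8 regions are printed because they show the features counted below. All are on the plus strand of mm10, 5′ to 3′, read from the RefSeq GRCm38.p6 assembly. For the first 7, the window runs 100 bp to either side of the summit of the strongest region of the chain. In the first 6, capitals mark GATA matches, which are AGATAA or AGATAG, and likewise TGATAA or else TGATAG, on either strand. In the T-cell receptor sequence, capitals mark a match to the CTCF core consensus. The last window is centred on a tRNA gene, which is in capitals, and was picked after its value was seen.
Fyb intron, chr15:6540073-6540273: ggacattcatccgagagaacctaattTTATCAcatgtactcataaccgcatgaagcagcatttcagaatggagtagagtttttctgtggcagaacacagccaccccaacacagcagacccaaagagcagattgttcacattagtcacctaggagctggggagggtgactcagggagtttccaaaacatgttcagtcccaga
Nsmaf intron, chr4:6405209-6405409: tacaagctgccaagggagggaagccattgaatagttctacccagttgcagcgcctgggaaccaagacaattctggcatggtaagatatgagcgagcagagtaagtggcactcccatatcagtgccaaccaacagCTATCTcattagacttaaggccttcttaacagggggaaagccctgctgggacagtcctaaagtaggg
upstream of Ghrhr, beside Aqp1, chr6:55367205-55367405: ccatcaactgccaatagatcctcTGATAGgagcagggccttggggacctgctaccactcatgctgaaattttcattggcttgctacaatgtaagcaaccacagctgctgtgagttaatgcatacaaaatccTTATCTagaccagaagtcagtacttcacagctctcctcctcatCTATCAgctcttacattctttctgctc
upstream of Rhag, in an exon of Crisp2, chr17:40806771-40806971: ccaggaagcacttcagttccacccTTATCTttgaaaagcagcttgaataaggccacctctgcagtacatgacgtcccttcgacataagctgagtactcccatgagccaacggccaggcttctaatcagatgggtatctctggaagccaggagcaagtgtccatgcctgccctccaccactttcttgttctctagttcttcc
Runx1 intron, chr16:92801629-92801829: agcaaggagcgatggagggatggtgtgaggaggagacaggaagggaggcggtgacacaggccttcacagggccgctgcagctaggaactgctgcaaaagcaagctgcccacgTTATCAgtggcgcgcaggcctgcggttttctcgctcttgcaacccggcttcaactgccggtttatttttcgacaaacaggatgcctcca
Cbfa2t3 intron, chr8:122685602-122685802: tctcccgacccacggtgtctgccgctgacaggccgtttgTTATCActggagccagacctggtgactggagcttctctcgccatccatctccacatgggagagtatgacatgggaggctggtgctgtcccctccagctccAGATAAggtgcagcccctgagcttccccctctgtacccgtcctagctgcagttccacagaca
T-cell receptor alpha locus, chr14:53345654-53345854: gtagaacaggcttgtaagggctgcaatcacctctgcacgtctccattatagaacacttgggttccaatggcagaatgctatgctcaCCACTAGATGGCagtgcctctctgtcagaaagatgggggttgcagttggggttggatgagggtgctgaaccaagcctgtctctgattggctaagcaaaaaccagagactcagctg
tRNA gene n-TYgta7 in the Btn1a1 and Abt1 chain, chr13:23432934-23433134: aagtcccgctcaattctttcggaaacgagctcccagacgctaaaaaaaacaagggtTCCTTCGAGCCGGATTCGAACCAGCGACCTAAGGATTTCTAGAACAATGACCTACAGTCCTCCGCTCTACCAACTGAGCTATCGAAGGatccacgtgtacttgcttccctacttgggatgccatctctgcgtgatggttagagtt
The window beside Aqp1 held 3 GATA matches and that of Cbfa2t3 held 2. The windows in Runx1, upstream of Rhag and in Cbfa2t3 also held the spaced pair that GATA1 and TAL1 are known to bind, searched as CTG, then 7 to 9 bases, then GATAA. A match describes letters in the window and does not show that a factor was bound.

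Most chains were short. Exactly 5 regions made up 278 chains, 6 regions made up 147, and 7 regions made up 62. The 81 chains of 8 or more regions included 18 with 10 or more. Just below the rule lay 624 runs of 4 regions, with a median summed fold of 24.4 and a median span of 18.1 kb. The 278 chains of 5 regions had a median summed fold of 29.7 and a median span of 24.6 kb. At the distance limit, 61 of the 2865 gaps inside chains were longer than 12 kb, and the longest was 12488 bp. The shortest gap at a chain end was 12540 bp, and 14 of 1106 such gaps were at most 13 kb. Inside chains the median gap was 4962 bp, against 20833 bp between all neighbouring distal regions.

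The chains spanned 2.71 to 83.4 kb, with a median of 28.4 kb, and 16.8 Mb in total. Summed fold ran from 17.6 to 79.0 with a median of 33.7, and the curve of ranked chains had no sharp step after the first few. The chain in 10th place had 62.6, that in 11th place 61.3 and that in 100th place 44.9. The 10 highest chains together held 3.33% of the fold of all chains. Across the 568 chains, summed fold rose about as closely with the number of regions (Spearman's rho 0.664) as with the mean fold of a region (rho 0.630), and both enter the sum. The number of regions and their mean fold had a rho of -0.0928.

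**Figure D1:**
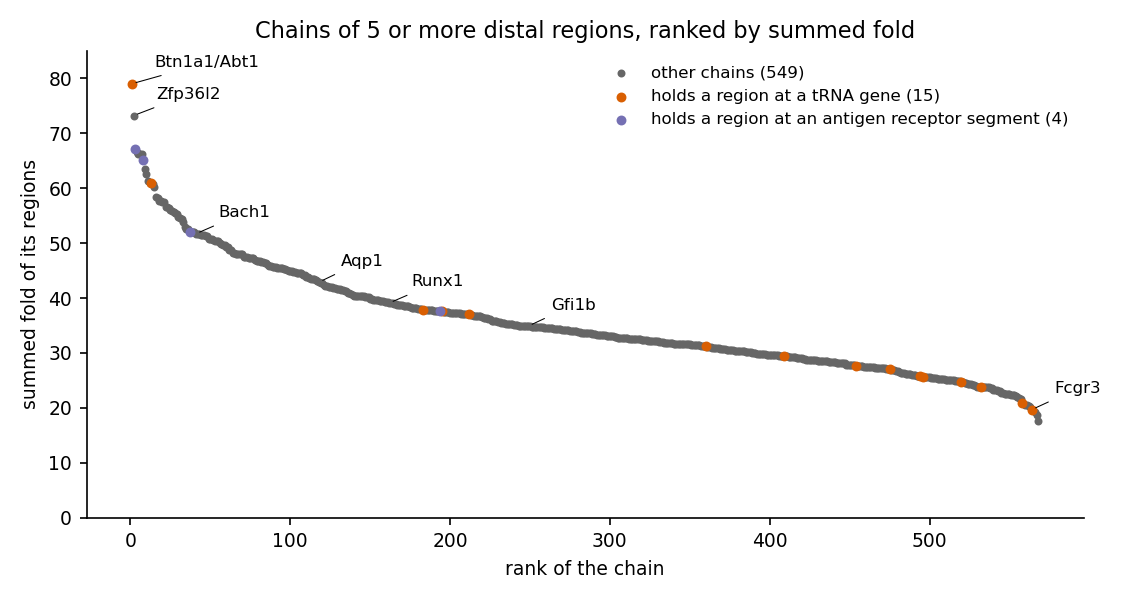
Summed fold of each of the 568 chains (linear y axis) against its rank (x axis); colours mark chains with a region at a tRNA gene (15) or an antigen receptor segment (4), and 7 chains are named. The curve falls from 79.0 through 62.6 at the 10th chain, and Fcgr3, a tRNA-bearing chain, sits near its low end at 19.7.

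The chain of highest summed fold ran across Abt1 and Btn1a1 on chromosome 13 (chr13:23396365-23467269, mm10). It had 16 regions, the most of any chain, and a summed fold of 79.0. Of the 16, 10 overlapped a tRNA gene of the RefSeq annotation, and 4 held a GATA match. Its regions were of modest strength, from 2.98 to 8.32. The strongest lay in an intron of Btn1a1, which encodes a butyrophilin, and had a fold of 7.67 in replicate 1 and 8.47 in replicate 2. That region held 3 GATA matches and the spaced pair. The tyrosine tRNA gene printed above lay under a region of fold 7.72, with 7.68 in replicate 1 and 7.24 in replicate 2. The summed fold was 61.7 in replicate 1 and 71.1 in replicate 2, partly over different regions, since 4 of the regions were unlisted in replicate 1 and 2 in replicate 2. Unlisted regions add 0 to these sums.

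Near Zfp36l2, on chromosome 17, the second chain had 13 regions with no annotated protein-coding gene body under any summit (chr17:83956385-84039803). Zfp36l2 encodes an RNA-binding protein that promotes the decay of messenger RNAs and acts in red cell progenitors. The strongest region lay 148 kb from its TSS, and the other end of the chain lay nearer to Haao, an enzyme of tryptophan breakdown. The span, 83.4 kb, was the longest. Regions were even in strength, 4.06 to 8.26, so that the strongest gave 11.3% of the sum, and 9 of the 13 held a GATA match. This chain was first in each library, with 66.4 in replicate 1 and 73.2 in replicate 2.

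Fyb held a whole chain inside the gene, and Nsmaf most of one. In Fyb, an adaptor protein of T cells and platelets, all 9 regions lay in introns (chr15:6533904-6593450), with a summed fold of 60.3 in replicate 1 and 62.8 in replicate 2. Its strongest region had a fold of 15.3 in replicate 1 and 15.2 in replicate 2, and gave 25.6% of the sum. The other regions of Fyb lay between 4.78 and 8.56, well below it. In Nsmaf, an adaptor of tumour necrosis factor signalling, 8 of 9 regions lay inside the gene (chr4:6404905-6456091). The strongest of these also lay within Sdcbp. The other region was intergenic, 1.59 kb from the Nsmaf TSS, and 8 of 9 regions held a GATA match. The strongest Nsmaf region had 13.9 in replicate 1 and 12.1 in replicate 2. Summed fold of this chain was 62.7 and 63.1 in replicates 1 and 2, which is 62.9 ± 0.26 (SD, n = 2).

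The other chains among the 10 highest were of several kinds. A chain of 12 regions ran across Jade2, a PHD finger protein, with 6 regions in the gene, 5 upstream of it and 1 downstream. Its strongest region was this last one, nearest to the start of Sar1b, a GTPase of secretory vesicles. The summed fold was 50.9 in replicate 1 and 63.2 in replicate 2. It ranked 20th in replicate 1 and 4th in replicate 2, and the region nearest to Sar1b had 6.14 and 10.8 in replicates 1 and 2. Akna, an AT-hook protein, held 9 of the 13 regions of its chain, and 8 of the 13 had a GATA match. Cog3, a subunit of a Golgi complex, held 6 of the 9 regions of its chain, and 7 of the 9 had a GATA match. Irf2bpl, a zinc finger protein, was the nearest gene of a chain of 10 intergenic regions, the strongest with 11.1 and 11.6 in replicates 1 and 2 and 68.4 kb from its TSS.

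A pair of chains among the 10 highest lay in the T-cell receptor alpha locus on chromosome 14. The nearest protein-coding starts are those of Olfr1507, 850 kb away from the strongest region, and Dad1, 516 kb away. The first of them (chr14:53301804-53351814) had 9 regions, 7 of them within 1 kb of a receptor gene segment. The other (chr14:53729221-53777038) had 10 regions, 3 of them at segments. All 9 and 9 of 10, respectively, had a similar copy (at least 90% identity over at least 150 bp) at another distal summit. Some reads may therefore be hard to assign to 1 copy, which was not tested. Among all chain regions, 78 of 3433 had such a copy, 2.27%, beside 1.75% of all distal regions. The strongest region of the first had a fold of 10.7 in replicate 1 and 10.8 in replicate 2 and held the CTCF match printed above. Segments also occurred in 2 further chains, 1 in this locus and 1 nearest to 2210010C04Rik on chromosome 6.

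**Figure D2:**
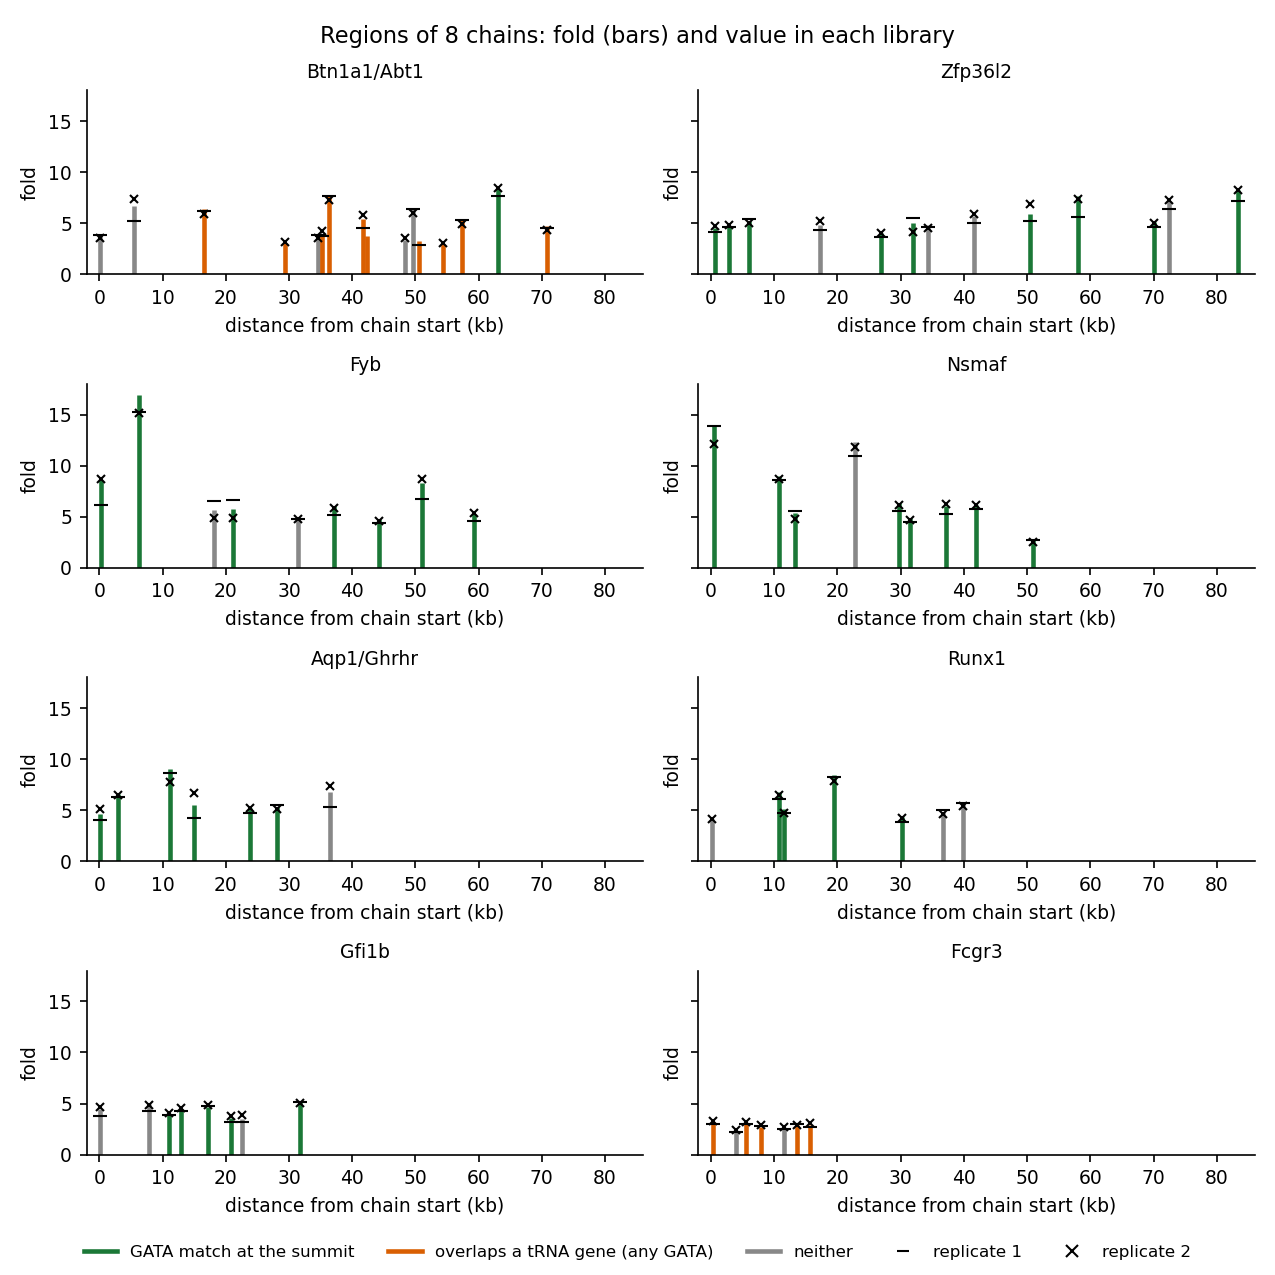
Fold of each region (bars, linear y axis) at its distance from the chain start in kb (x axis) for 8 chains; bar colour shows a tRNA gene, a GATA match or neither, and symbols give the value in replicate 1 and replicate 2 where the region was listed. Fyb and Nsmaf each have at least 1 region above 10, the regions of Zfp36l2 and Gfi1b are even, and all Fcgr3 regions stay at or below 3.29.

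Ranking by the mean fold of a region brought out other chains. The 4 highest were at Fig4 and Cpeb4 (both 9.49), Hlx (9.44) and Egfl6 (9.31), and each had exactly 5 regions. Fig4, a phosphoinositide phosphatase, held all 5 regions in introns, 81.8 to 114 kb from its start. Its folds ran from 7.49 to 13.1, and 4 of 5 regions had a GATA match. Cpeb4, an RNA-binding protein of translational control in late red cell maturation, had its strongest region 1.44 kb from a TSS, with 13.9 in replicate 1 and 12.6 in replicate 2. Hlx, a homeobox factor, was 74.1 kb from a region with 15.1 and 14.4 in replicates 1 and 2. None of the 10 chains with the highest sum was among the 10 with the highest mean.

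Of the 30 haematopoietic transcription factor genes listed, 8 had a chain within 10 kb of the gene body, 26.7% (Wilson 95% interval 14.2 to 44.4). Of all protein-coding genes, 719 of 21853 had one, 3.29%. The listed genes are longer (median 32.0 kb against 17.4 kb), and length moves with this share: it was 1.14% in the shortest 20% of all genes and 6.75% in the longest. The part of length in the count was not tested. With a chain within 50 kb of the most upstream TSS as the link, the count was again 8 of 30. That link gave 4.84% of all protein-coding genes and 6 of 24 housekeeping genes, a share near that of the transcription factors.

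Bach1, a haem-binding repressor, had the highest of these chains (chr16:87705764-87755392). Its 8 regions summed to 49.2 in replicate 1 and 48.6 in replicate 2, and 5 regions lay inside the gene. The other 3 lay downstream of the gene, up to 56.2 kb from the nearest Bach1 start, with the strongest at 48.0 kb. Runx1, a factor needed for blood stem cells and platelets, held all 7 regions of its chain in introns, 3.51 to 43.2 kb from a start (chr16:92782374-92822642). The strongest Runx1 region, printed above, had 8.26 in replicate 1 and 7.81 in replicate 2. The first region of that chain was listed in replicate 2 alone, at 4.11.

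Gfi1b, a repressor that partners GATA1 in red cells and platelets, had 8 regions of even and low fold, 3.52 to 5.27, summing to 32.6 in replicate 1 and 35.8 in replicate 2 (chr2:28585221-28617507). Only the strongest lay inside Gfi1b, and the rest stretched to Gtf3c5. Cbfa2t3, a corepressor of the TAL1 complex also known as ETO2, had a chain of 6 regions, 3 inside the gene and 3 upstream, and all 6 had a GATA match (chr8:122682820-122721196). In Ikzf1, which encodes Ikaros, all 7 regions had a GATA match and lay in introns, 28.4 to 56.4 kb from a start. Zfpm1, the GATA1 cofactor FOG1, held 8 regions summing to 32.0, of which 7 had a GATA match. The ETS factors Fli1 and Erg held 5 regions each, summing to 28.1 and 22.6. Cbfa2t3 and Zfpm1 also lie inside Gm20388, a read-through gene model of 4.43 Mb that by the naming rule gave its name to 9 chains and through which the 3 upstream Cbfa2t3 regions count as intronic.

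Of the 29 listed erythroid genes found in the annotation, 6 had a chain, 20.7% (Wilson 95% interval 9.85 to 38.4), and 11 of 29 had one within 50 kb of the TSS, beside 4.84% of all genes. Under that link stem and progenitor genes had 3 of 20 and housekeeping genes 6 of 24, where the gene body link gave 0 and 2. Aqp1, the water channel of red cells, had the highest: 7 regions downstream of it, of which 4 lay upstream of Ghrhr, 2 in Ghrhr and 1 beyond it, summed to 38.7 in replicate 1 and 43.6 in replicate 2 (chr6:55356086-55392894). GATA matches occurred in 6 of the 7, and the strongest, printed above, had 8.67 and 7.73. Rhag, a partner of the Rh proteins, had 5 regions summing to 33.5 and 31.6. Of the 5, 4 lay in its introns. The strongest, 4.25 kb upstream of its start and over an exon of Crisp2, had 10.3 in replicate 1 and 9.88 in replicate 2. Tmcc2 had 7 regions summing to 31.0 and 35.3, of which 6 had a GATA match. Bcl2l1, the survival factor Bcl-xL, had 5 regions summing to 29.9, and 3 of them held the spaced pair. Gypc, a membrane glycophorin, summed to 28.9 and Car2, a carbonic anhydrase, to 24.6. Of the 5 regions of the Car2 chain, 1 lay in Car2 and 2 in Car3.

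The beta-globin locus held a chain that the gene link missed for the listed globin genes, because it lies upstream of Hbb-y, an embryonic globin gene absent from the list. It was picked after its values were seen. Its 6 intergenic regions (chr7:103854487-103877713) summed to 44.6 in replicate 1 and 43.9 in replicate 2, which is 44.3 ± 0.511 (SD, n = 2). The regions lay from 1.70 kb to 12.7 kb from the Hbb-y start and then nearer to Olfr66, in the stretch upstream of the globin genes that holds the locus control region. The strongest had 8.90 in replicate 1 and 9.36 in replicate 2. GATA matches occurred in 5 of the 6 and the spaced pair in 4 of the 6. A further globin chain that the link gave to no listed gene, of 7 regions at Nprl3 and Hba-x, ranked 42nd against 83rd here. The chain with the spaced pair in most regions, 5 of 12, ran from Syne3 (3 regions) across the stretch between the genes (5 regions) into Glrx5 (4 regions), an iron-sulphur cluster protein needed for haem synthesis (chr12:104990680-105041403). That chain summed to 54.6 and 56.9 in replicates 1 and 2, and all 12 regions were listed in both.

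The other lists had few genes with a chain, and each interval included the 3.29% of all protein-coding genes. The share was 7.14% for haem and iron genes and 8.33% for housekeeping genes. It was 4.17% for T and NK cell and for granulocyte and macrophage genes, and 3.33% for megakaryocyte and platelet genes. Of 28 haem and iron genes, 2 had a chain: Fech, the last enzyme of haem synthesis, and Hebp1, a haem-binding protein. Fech summed to 22.3 in replicate 1 and 33.0 in replicate 2, a gap larger than for most chains. Of 30 megakaryocyte and platelet genes, Tbxas1, thromboxane synthase, was the one with a chain; all 5 regions lay in introns with a GATA match and summed to 28.3 and 34.3. Of 24 T and NK cell genes, Klrb1c had one, in a stretch where 4 of 5 regions had similar copies. All 5 regions lay in Gm44511 and none in Klrb1c. Of 24 granulocyte and macrophage genes, Fcgr3 had one, with every region upstream of the gene. The Fcgr3 chain had 7 weak regions (2.30 to 3.16), 5 of them over tRNA genes and none with a GATA match, and it ranked 564th. Stem and progenitor (20), mast cell, basophil and eosinophil (19), B cell (20), hepatocyte (24), neuron (24) and muscle (24) genes had none. Of 24 housekeeping genes, 2 had one, among them Rpl32, for a ribosomal protein. The summed fold of the chain near Rpl32 was 44.2 in replicate 1 and 47.1 in replicate 2. Of its 7 regions, 5 lay in Efcab12, 2 in Cand2 and none in Rpl32. With so few genes a list, intervals are wide: 0 of 20 allows up to 16.1%.

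**Figure D3:**
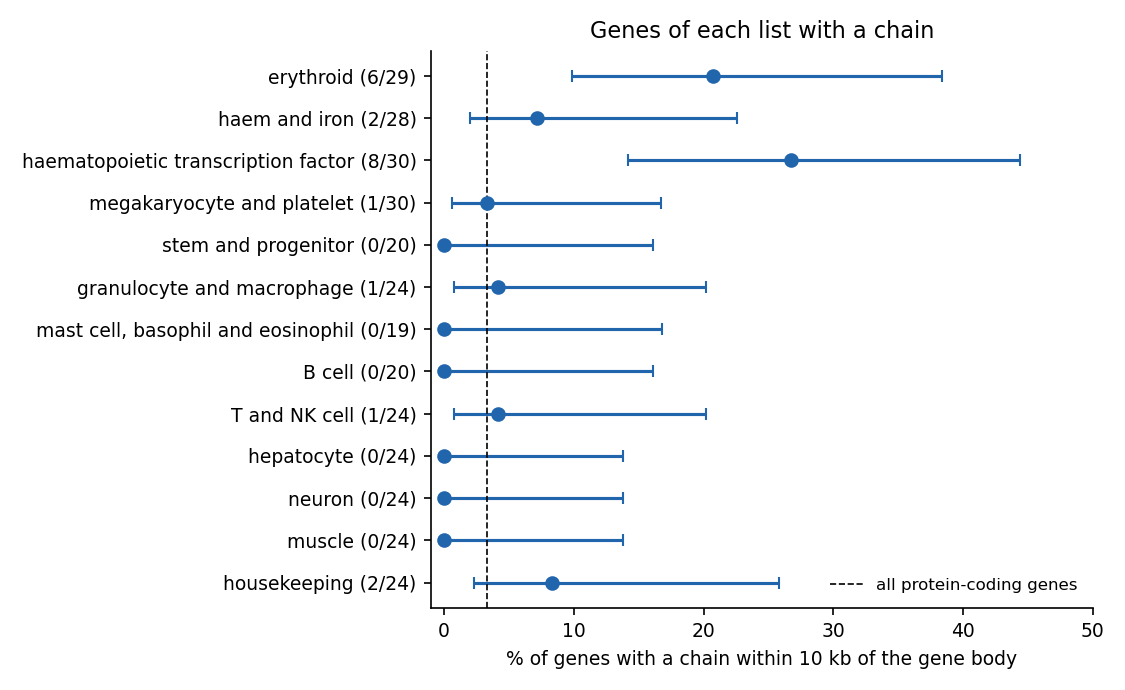
Share of the genes of each of 13 lists with a chain within 10 kb of the gene body (x axis, percent; points with Wilson 95% intervals) and the share of all protein-coding genes (dashed line). The transcription factor (26.7%) and erythroid (20.7%) intervals lie above the line at 3.29%, and the other 11 intervals include it.

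Sequence was not part of the rule. A GATA match lay within 100 bp of the summit in 2062 of 3433 chain regions, 60.1% (58.4 to 61.7), and in 53.1% (52.5 to 53.7) of distal regions outside chains. Over all 32778 distal regions the share was 53.8%. Windows of the same length centred 500 bp to either side held one in 29.4% and 30.8%, respectively. The share rose with the length of the run, from 50.9% for lone regions through 53.5%, 56.0% and 57.9% for runs of 2, 3 and 4, and stayed between 59.9% and 60.2% from 5 regions on. Within each of 5 equal groups by fold, and within each of 5 by GC content, the chain regions had the higher share. For example, in the strongest group it was 68.0% in chains and 57.7% outside, and in the group of highest GC content 34.6% and 29.3%.

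CTCF moved the other way. A match to its core consensus lay at 191 chain regions, 5.56% (4.85 to 6.38), against 10.7% (10.4 to 11.1) outside chains and 10.2% of all distal regions. It fell from 12.3% of lone regions to 3.99% in runs of 8 or more. In the strongest group by fold, the shares were 4.25% in chains and 9.19% outside. Without the regions that hold a CTCF match, GATA stood at 62.2% in chains and 56.6% outside. Regions are not replicates, and these intervals cover counting error only, so the differences were not tested across samples.

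**Figure D4:**
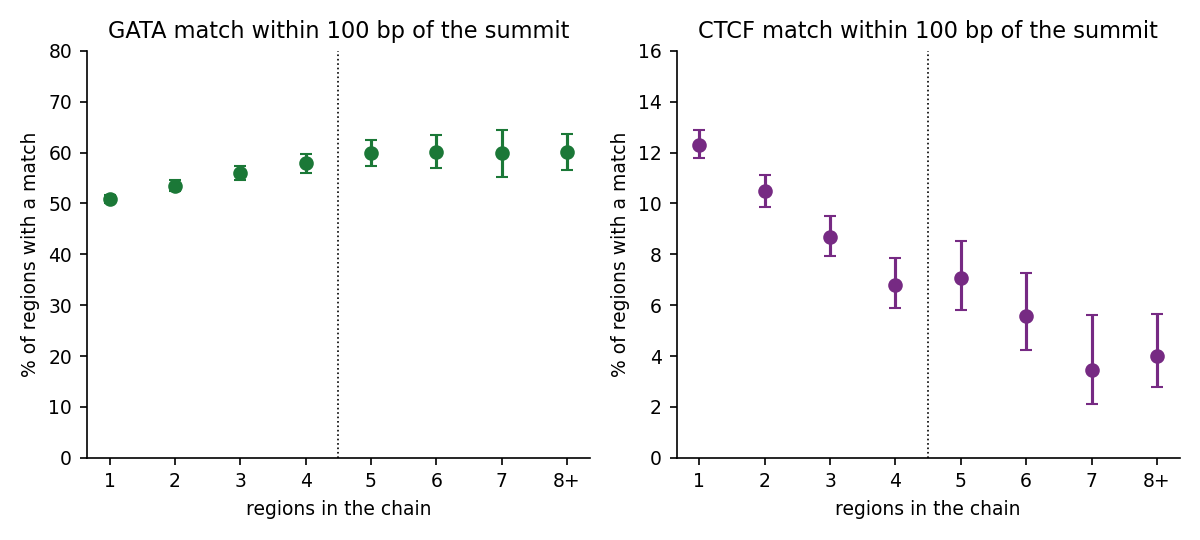
Share of distal regions with a GATA match (left) or a CTCF match (right) within 100 bp of the summit (y axes, percent) by the number of regions in the run (x axes); bars are Wilson 95% intervals and the dotted line marks the rule of 5. GATA climbs from 50.9% to about 60.2%, and CTCF drops from 12.3% to 3.99%.

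Other motifs differed by fewer percentage points. The spaced pair of E-box and GATA was in 411 of 3433 chain regions (Wilson 95% interval 10.9% to 13.1%), in 10.4% outside and in 10.6% of all distal regions. TGTGGT, read by RUNX factors, was in 21.2% of chain regions and 21.5% of all distal regions. GGAAGT, read by ETS factors, was in 447 of 3433 chain regions (11.9% to 14.2%) and 14.5% of all distal regions. CCNCACCC, read by KLF factors such as KLF1, was in 12.6% and 11.2%, and TGANTCA, read by AP-1 and NFE2, in 7.46% and 7.28%. These matches were counted on both strands, and the spaced pair can overlap a GATA match.

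Within chains the strongest region had a GATA match in 63.7% of cases (59.7 to 67.6) and the others in 59.3% (57.5 to 61.1). The spaced pair was in 95 of the 568 strongest regions, 16.7%, and in 316 of the 2865 others. End regions and inner regions had GATA in 58.8% and 60.7% and CTCF in 6.16% and 5.27%. Every region had a GATA match in 49 chains, among them Ikzf1, Cbfa2t3 and Tbxas1. In 15 chains no region had one, Fcgr3 among them. At least 50% of regions had one in 395 chains, and 301 chains had the spaced pair somewhere.

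By place, 53.8% of chain regions (52.1 to 55.4) had their summit in an intron of a protein-coding gene, 41.7% between genes and 4.52% in an exon. Outside chains the shares were 48.9%, 45.1% and 6.05%. In 221 chains all regions lay in the gene that names the chain, 9 of them by the read-through model Gm20388, and in 144 all were intergenic. A promoter region lay inside the span of 128 chains, 22.5%, and 85 chains had no protein-coding gene within 10 kb. Of the chain regions, 119 came within 1 kb of a long non-coding RNA start, 3.47% against 3.06% outside. There were 24 genes with at least 2 chains, for example Gse1 with 3.

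tRNA genes lay under 38 chain regions, 1.11% (0.808 to 1.52), and under 76 regions outside chains, 0.259% (0.207 to 0.324). The 38 regions fell in 15 chains, led by the Btn1a1 and Abt1 chain with 10 and by Fcgr3 and Olfr1423 with 5 each. Their median fold was 4.11, below the 5.46 of all chain regions. By chromosome, 7.80% (chromosome 18) to 13.6% (chromosome 6) of distal regions of an autosome were in chains. On X it was 30 of 701, 4.28%, in 5 chains, and X also had fewer distal regions per Mb, 4.10 against 10.2 to 17.5 on autosomes. These are male cells, with 1 copy of X, and the part of copy number in these values was not tested. Y had 8 of its 13 distal regions in 1 chain, and 4 of the 8 had similar copies. The shortest chain, 2.71 kb on chromosome 4, lies about 829 kb or more from the nearest start, Tyrp1, and 4 of its 5 regions match mitochondrial DNA over at least 100 bp. Only 1 other chain region has such a match, so 2 chains hold the 5 matching regions.

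The regions of a chain had lower fold values, at the median, than other distal regions. Their median fold was 5.46, against 6.43 outside chains. In the libraries taken singly it was 5.10 and 5.51 in chains and 5.78 and 6.36 outside, which is 5.31 ± 0.284 and 6.07 ± 0.405 (SD, n = 2). The chain value was the lower of the pair within each library, and replicate 2 was higher than replicate 1 for both classes. Significance ran the other way, with a median −log10 p of 34.1 in chains and 32.3 outside. Chain regions were also slightly wider (484 bp and 471 bp) and had a GC content of 50.7% at the summit against 50.2%. The part of these measures in the fold was not tested. The strongest region gave a median of 25.2% of its chain's sum, from 10.5% at Btn1a1 to 40.9% at Hivep1, and was a median of 2.25 times the weakest.

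Each library also has its own lists. In the longer list called pseudoreplicated, 94.1% of chain regions were present in replicate 1, 3263 of 3433 in replicate 2 and 91.2% in both, against 90.8% in both outside chains. In the stricter IDR-thresholded lists (IDR, a measure of how well peak ranks repeat), 50.5% were present in replicate 1 and 54.4% in replicate 2. In both it was 1446 of 3433 regions, 42.1% (40.5 to 43.8), beside 38.9% of all distal regions and 38.5% outside chains. The conservative list was made from the same libraries, so this is a description of overlap. All regions of a chain were in both strict lists for 4 chains, at Enah, Klrb1, Dop1b and Gm44511. For 20 chains no region was, and 43 chains had at least 5 such regions.

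Summed fold per chain was similar in the libraries. Over the 568 chains Pearson's r was 0.934 and Spearman's rho 0.912. The points share the set of regions and their number, which enters both sums. The median SD between libraries was 1.93, or 6.11% of the mean. Replicate 2 gave the higher sum in 453 chains. Of the 10 highest chains, 7 were among the 10 highest of replicate 1 and 9 among those of replicate 2, and their lowest places were 20th and 23rd. The largest gap was at Fam129b, with 20.2 in replicate 1 and 36.3 in replicate 2, where 5 and 7 of its 7 regions were listed.

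**Figure D5:**
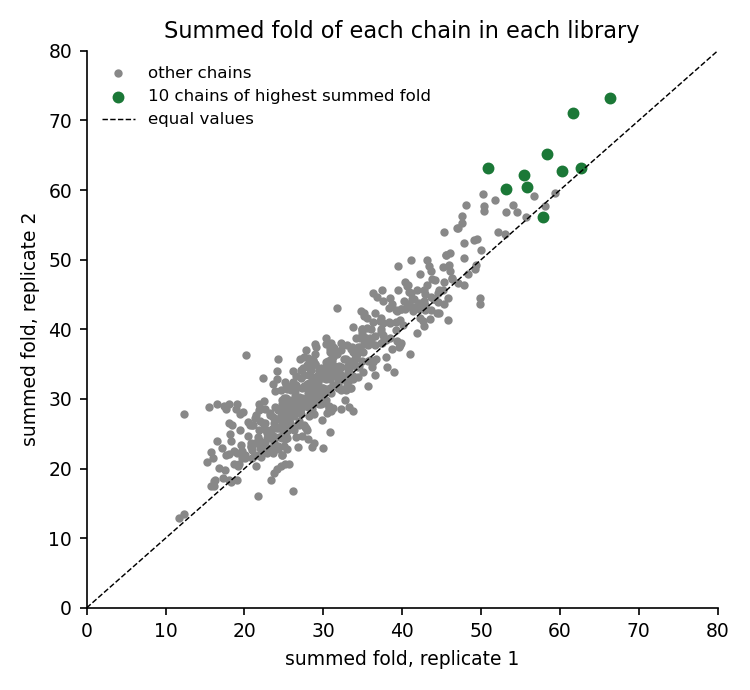
Summed fold of each chain in replicate 1 (x axis) and replicate 2 (y axis), over regions listed in that library; green points are the 10 chains of highest summed fold and the dashed line marks equal values. Most points (453 of 568) lie above the line, and the 10 highest chains stay at the upper end in both libraries.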

How the data were processed

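ATAC-seq peak lists of 2 libraries of mouse MEP were used. Peak positions are on mm10, per the file headers. The deposited ratio column was taken as the fold of a peak over background, judging by its range and its position in the narrowPeak layout. The deposited −log10 column holds the p-value of a peak. Both are the authors' own values. Aligner and peak caller: not given in the sources used here. Read depth is unknown, and the number of libraries limits the precision. Wilson 95% intervals cover counting error only.

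Overlapping peaks were merged, each region keeping its strongest peak. TSS and gene bodies came from GENCODE M21 (21853 protein-coding genes, 54361 TSS). Sequence and 403 tRNA genes of the main chromosomes came from RefSeq GRCm38.p6. A region was present in another list when at least 1 bp overlapped. Motifs were searched from 100 bp before to 100 bp after the summit. Copies were found with BLAST 2.17.0. Python 3.11.15, pandas 2.3.3 and pysam 0.24.0 were used, and merging, chaining and motif search were tested on simulated data. With 1 group of 2 libraries no test was run. Chains named in the text were the 10 of highest summed fold, the 5 of highest mean fold, the 3 with most regions, and up to 5 genes of each list with the highest chains. A chain was named after the gene body holding most of its regions, otherwise after the TSS nearest to its strongest region. Some genes and chains that these rules name are not reported here. Other chains, such as those at Hbb-y, Nprl3, Klf3, Lmo2, Syne3, Fam129b, Hivep1, Zfpm1, Fli1 and Erg, were named after their values were seen. The chains and gene lists were chosen with earlier results of these data known. Alternatives changed the gap, the smallest chain, the promoter distance, the peak list, the library, the ranking, the motif window and the link to genes. Archived, ranked and pooled pseudoreplicated lists were not used here.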

Additional observations from a re-analysis of the deposited data

How the results depend on the processing

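The number of chains follows the rule and the list. It was 568 by the rule, 57 with a gap of 5 kb, 1173 with 20 kb, 1192 with at least 4 regions, 290 with at least 6, 1417 with promoter regions kept, 2984 on the replicated list and 20 on the stronger 50% of regions. Leaving out a library gave 51 to 76. The percent of distal regions in chains was 10.5, and in the same order 0.943, 23.6, 18.1, 6.23, 19.9, 33.0 and 0.610, with 1.74 to 2.37 when a library was left out. It was 9.15 with regions within 2.5 kb of a TSS left out and 8.73 on the list thresholded on pooled pseudoreplicates. Of the 10 highest chains, 6 stayed among the 10 highest with regions within 2.5 kb of a TSS left out, 5 when ranked by summed −log10 p, 4 on the pooled pseudoreplicate list, 3 with a gap of 20 kb and 1 on the replicated list. With a gap of 5 kb, promoter regions kept, the stronger 50% or ranking by mean fold it was 0, and 0 to 2 without a library. Listed genes with a chain numbered 21, and 37 by TSS within 50 kb, 32 with at least 4 regions, 12 with at least 6, 42 with a gap of 20 kb, 3 with 5 kb, 66 with promoter regions kept, 73 on the replicated list, 1 on the stronger 50% and 4 to 5 without a library.

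The percent of chain regions in introns was 53.8, but 51.9 with at least 4 regions, 40.8 with a gap of 5 kb, 45.1 with promoter regions kept, 44.0 on the stronger 50% and 37.8 to 48.6 without a library. That with a GATA match was 60.1, but 49.8 with a gap of 5 kb, 47.1 with promoter regions kept, 55.7 on the replicated list, 45.0 and 71.4 in windows of 50 and 200 bp to either side, and 62.6 to 63.6 without a library. GATA was more frequent in chains than outside under 12 of 13 other definitions. The exception was the gap of 5 kb, with 49.8% in chains and 53.9% outside. CTCF was less frequent in chains under all 13. Median fold was lower in chains under 12, the exception being the stronger 50% (8.20 and 8.04). The intron share outside chains was not computed under these definitions, so the direction of that difference was not tested. Presence in both strict lists was 42.1%. Presence in the strict list of 1 library, whether or not in the other, was 50.5 to 54.4%. Leaving out regions at tRNA genes or receptor segments, chosen after seeing the data, gave 553 chains and kept 7 of the 10 highest. No paired analysis was possible because there is 1 group. A strict list of 1 library holds fewer distal regions (15789 and 17440), which bounds what can chain.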
